A study of Mus musculus with 8 samples.

Results

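The 10 genes described here are markers that separate forms of reactive astrocyte: Srgn, Amigo2, Fbln5, Ggta1 and Fkbp5 are usually given with an inflammatory type, and Tgm1, Ptx3, Cd109, Emp1 and Tm4sf1 with an ischemic type. They were taken by symbol from the 54146 genes of the deposited tables, and each of the 10 matched 1 row. The data are RNA-seq of 8 libraries of cultured astrocytes, in 4 groups with 2 biological replicates apiece. Control KD astrocytes carried a non-silencing short hairpin RNA (shRNA) and GSTM1 KD astrocytes an shRNA against Gstm1, and both were collected without stimulation (the basal state) or following 6 h of TNF-α (50 ng/ml). Gstm1 encodes a glutathione S-transferase, and TNF-α is an inflammatory cytokine made in the brain mostly by microglia. In all 4 groups the cells were mixed glia from the cortices of C57BL/6 pups that had been infected with lentivirus, selected with puromycin and depleted of CD11b-positive cells. Each library is therefore a bulk culture after knockdown by a viral vector, and fewer cells of a type and less RNA per cell cannot be told apart.

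Reactive astrocytes are astrocytes that change their gene expression after injury, infection or inflammation. Profiling of astrocytes from mice given bacterial lipopolysaccharide or an arterial occlusion gave a set of genes raised mainly by the inflammatory stimulus, a set raised mainly by ischemia and a pan-reactive set raised by both. TNF-α, together with interleukin-1α and complement C1q from activated microglia, can bring about the inflammatory type in culture. The comparisons below ask how the 2 sets of markers stood when Gstm1 was knocked down, and how they moved under TNF-α with and without the knockdown.

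Total counts ran from 17349717 to 34434635 per library, and a count of 3, taken as the floor for counting error, corresponded to 0.0848 to 0.18 CPM (the count as a share of the library size, which was scaled by the TMM method). Gstm1 stood at 231 and 377 CPM in control KD against 29.0 and 31.4 CPM in GSTM1 KD in the basal state, and at 209 and 391 against 24.3 and 23.3 CPM after TNF-α, so the knockdown was seen in every library labelled with it. Of the astrocyte markers, 11 of 11 were above the floor in some library, and Gfap, an intermediate filament protein, stood at 921 to 5631 CPM. The summed level of these 11 genes was 3237 CPM in control KD replicate 1 and 7824 CPM in control KD replicate 2 in the basal state, and 3299 and 7896 CPM in the same order after TNF-α. In GSTM1 KD it was 6901 and 10660 CPM in the basal state and 7009 and 10360 CPM after TNF-α, so control KD replicate 1 was the lowest library in both states. The 12 microglial markers summed to 4.46 to 15.6 CPM, with Cd68 at 2.07 to 4.24 CPM and P2ry12 at or below the floor in all libraries, and were highest in control KD replicate 1 (15.6 and 15.03 CPM). The 8 endothelial markers summed to 9.14 to 25.4 CPM, mostly Flt1, with Cldn5, Emcn and Tie1 at or below the floor. The fibroblast or meningeal list was at 202 to 513 CPM (Col1a1 68.6 to 211 CPM, Lum at most 0.421 CPM). The oligodendrocyte list was at 532 to 834 CPM (mostly Olig1, with Mog and Mag at or below the floor), and the neuronal list at 390 to 502 CPM (mostly Map2, with Snap25 at or below the floor). Of these lists the endothelial sum (18.8 and 17.5 CPM for control KD against 9.14 and 12.2 CPM for GSTM1 KD; 20.3 and 25.4 against 12.8 and 17.6 after TNF-α) and the oligodendrocyte sum (705 and 834 against 612 and 605; 614 and 729 against 539 and 532) were lower in each GSTM1 KD library than in each control KD library of the same state. The neuronal sum was higher (416 and 422 against 502 and 452; 394 and 390 against 476 and 421). Within the endothelial list Flt1 and Cdh5 had lower group means and Kdr (0.594 and 1.21 against 1.72 and 2.96 CPM; 0.862 and 1.26 against 2.40 and 2.70 CPM) higher levels in GSTM1 KD. These sums thus moved with the knockdown comparisons, and their part in the results below was not tested.

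Per unit of transcript length, as TPM (the share of transcripts after division by their length), the ischemic markers were the more abundant set in these cultures. In control KD in the basal state the order was Tm4sf1 (423 ± 87.4 TPM, SD, n = 2), Emp1 (397 ± 36.4), Ptx3 (139 ± 63.0), Cd109 (92.7 ± 31.3), Ggta1 (80.4 ± 12.6), Fkbp5 (15.3 ± 0.0566), Tgm1 (10.8 ± 0.75), Fbln5 (8.37 ± 0.764), Srgn (1.5 ± 0.778) and Amigo2 (1.37 ± 0.269). The libraries of Tm4sf1 and Emp1 overlapped, as did those of Ptx3 and Cd109, of Cd109 and Ggta1 and of Srgn and Amigo2, whereas the other neighbours in this order did not overlap. The 5 ischemic genes together held 1031 and 1092 TPM in control KD and 654 and 659 TPM in GSTM1 KD in the basal state. After TNF-α they held 1180 and 1618 TPM in control KD and 863 and 840 TPM in GSTM1 KD. The ischemic sum was thus lower in each GSTM1 KD library than in each control KD library of the same state. The 5 inflammatory genes together held 97.1 and 117 TPM in control KD, 97.2 and 89.2 TPM in GSTM1 KD, 83.8 and 74.3 TPM in control KD after TNF-α, and 75 and 68.7 TPM in GSTM1 KD after TNF-α. These ranges overlapped between GSTM1 KD and control KD in both states, and both TNF-α groups lay below both basal groups. Ggta1 alone made up 65.5% to 76.4% of the inflammatory sum, and Ptx3 from 9.12% to 58.5% of the ischemic sum.

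**Figure D1:**
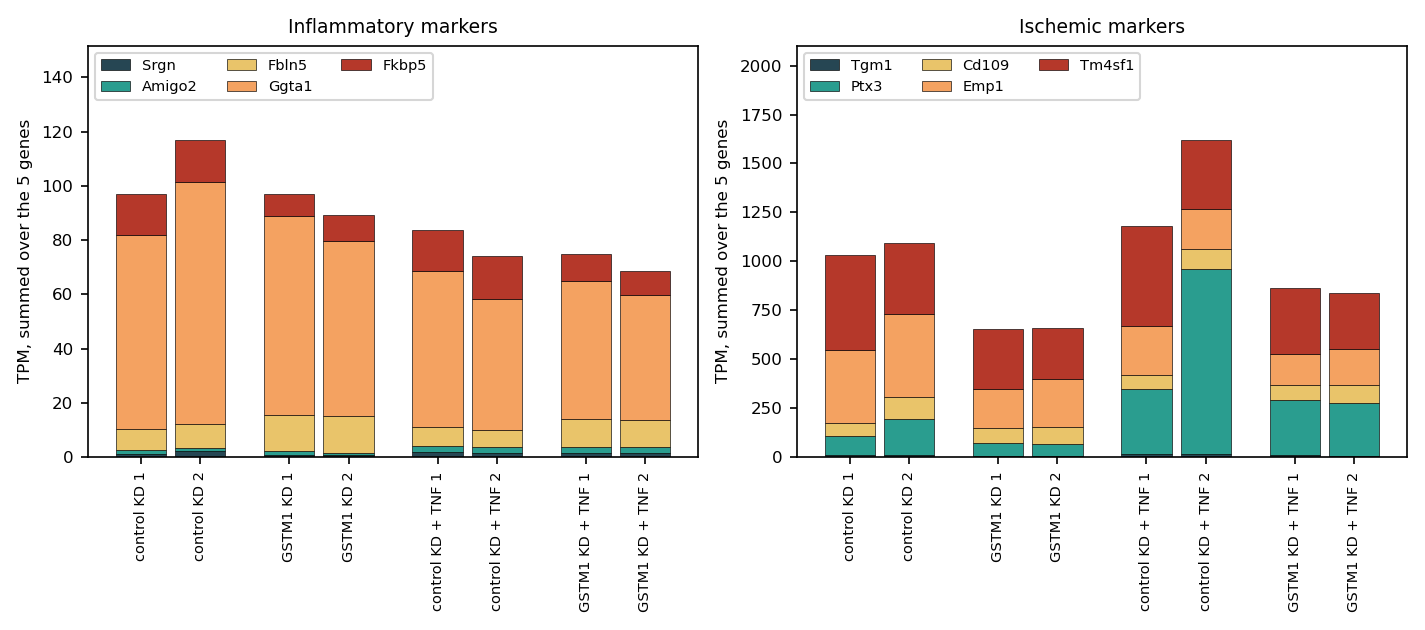
TPM in each of the 8 libraries, summed over the 5 inflammatory markers (left) and the 5 ischemic markers (right), with 1 colour per gene and bars starting at 0. The ischemic bars of GSTM1 KD (654 and 659 TPM, and 863 and 840 TPM after TNF-α) are shorter than those of control KD in the same state, and the tallest bar, control KD replicate 2 after TNF-α (1618 TPM), is mostly Ptx3.

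The promoters shown are those that held a match to a searched motif, all of them of ischemic markers, as sequence context for the values below. RefSeq windows on GRCm38.p6, from 250 bases before to 50 bases after a transcript start, were found for 9 of the 10 genes. Both strands were searched for an NF-κB consensus (by name alone, in 4.51% of 32851 windows of this length), AP-1 TGANTCA (7.81%), TEAD GGAATG (14.7%) and STAT TTCNNNGAA (8.3%). Matches were found in windows of Emp1, Tgm1, Ptx3 and Tm4sf1 and in no window of the 5 inflammatory markers, which says only that those letters are not there. Each sequence is given 5′ to 3′ in the direction of transcription, with matches in capitals. For Emp1 (chr6:135362681-135362930, plus strand) the 250 bases before the start hold 2 AP-1 matches, 145 and 25 bases before it, and 2 STAT matches, 120 and 22 bases before it, the later pair overlapping. For Tgm1 (chr14:55713493-55713742, minus strand) the capitals are 2 STAT matches, 173 and 64 bases before the start. For Tm4sf1 (chr3:57301989-57302238, minus strand) they are an NF-κB match 28 bases before it. For Ptx3 (chr3:66219877-66219906, plus strand), 30 bases are shown, from 10 before the start, and the 11 capitals are 2 overlapping NF-κB matches on opposite strands.
Emp1: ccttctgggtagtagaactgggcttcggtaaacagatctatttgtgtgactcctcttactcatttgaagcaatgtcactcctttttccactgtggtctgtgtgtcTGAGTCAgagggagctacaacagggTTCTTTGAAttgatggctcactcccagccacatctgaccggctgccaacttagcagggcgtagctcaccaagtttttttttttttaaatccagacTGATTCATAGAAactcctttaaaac
Tgm1: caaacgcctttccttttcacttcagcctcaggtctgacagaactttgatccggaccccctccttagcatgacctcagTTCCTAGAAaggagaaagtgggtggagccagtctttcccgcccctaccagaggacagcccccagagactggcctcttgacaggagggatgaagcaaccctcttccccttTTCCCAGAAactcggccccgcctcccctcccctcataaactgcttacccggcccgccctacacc
Tm4sf1: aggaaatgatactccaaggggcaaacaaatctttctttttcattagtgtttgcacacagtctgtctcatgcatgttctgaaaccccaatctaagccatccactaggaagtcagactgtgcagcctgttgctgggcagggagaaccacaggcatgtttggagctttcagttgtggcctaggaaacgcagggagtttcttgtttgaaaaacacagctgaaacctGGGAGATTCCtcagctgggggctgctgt
Ptx3: ccaaatccaGGGGAACTCCCtcgcgctgtg

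GSTM1 KD was first compared with control KD in the basal state, on 4 libraries. Of the 10 markers, 3 passed the threshold (adjusted p under 0.05, edgeR's quasi-likelihood test) and all 3 were lower in GSTM1 KD: Fkbp5 of the inflammatory type and Tgm1 and Emp1 of the ischemic type. Of all 14899 genes tested, 10.2% passed in either direction and 5.62% were lower. The libraries of the 2 groups did not overlap, with GSTM1 KD lower, for 7 of the 10 markers, against 31.2% of all genes tested. The median log2 fold change was -0.89 over the ischemic markers and -0.27 over the inflammatory markers, beside 0.00 over all genes tested (-0.002). With a library left out the inflammatory median ranged from -0.56 to -0.20 and the ischemic from -1.05 to -0.76, and they were nearest in the fit without GSTM1 KD replicate 1 (-0.56 and -0.76). After TNF-α, again on 4 libraries, 2 of the 10 markers passed, Fkbp5 and Tgm1, both lower in GSTM1 KD. Of all 14593 genes tested in that state 16.2% passed and 8.92% were lower, so the share of the markers that passed was close to the background. Libraries did not overlap, with GSTM1 KD lower, for 5 of 10 markers, against 31.9% of genes tested. The medians were -0.47 over the ischemic markers and -0.07 over the inflammatory markers, beside -0.01 over all genes, and ranged from -0.59 to -0.33 and from -0.16 to 0.0397 with a library left out. The 5 ischemic markers had a negative fold change in both states, though the sign of Cd109 turned with some libraries left out. Of the 5 inflammatory markers, 4 had a negative and 1 a positive fold change in the basal state, and 3 a negative and 2 a positive one after TNF-α. Without GSTM1 KD replicate 1 or 2, no marker kept its call in either state. In those fits 1 GSTM1 KD library remained and the spread came from the 2 control KD libraries alone. Few or none of all genes passed there, so a lost call does not set a marker apart from other genes. Leaving out a control KD library leaves 1 in that group, so that the spread in the fit comes from the 2 GSTM1 KD libraries alone. The replicate variance was 61.8 and 39.3 times the counting variance in control KD (basal state and TNF-α) and 14.7 and 16.8 times in GSTM1 KD. In such fits 7 markers passed in the basal state without replicate 1 (Ptx3, Tm4sf1, Ggta1 and Cd109 added) and 6 without replicate 2 (Fbln5, Ptx3 and Tm4sf1 added), and after TNF-α 3 without replicate 1 (Ptx3 added) and 5 without replicate 2 (Ptx3, Emp1 and Tm4sf1 added). In the same fits 2188 of 15263, 5233 of 15352, 2860 of 14843 and 5028 of 15274 of all genes passed. Since the more variable group gave no spread there, these added calls are no support for a difference.

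**Figure D2:**
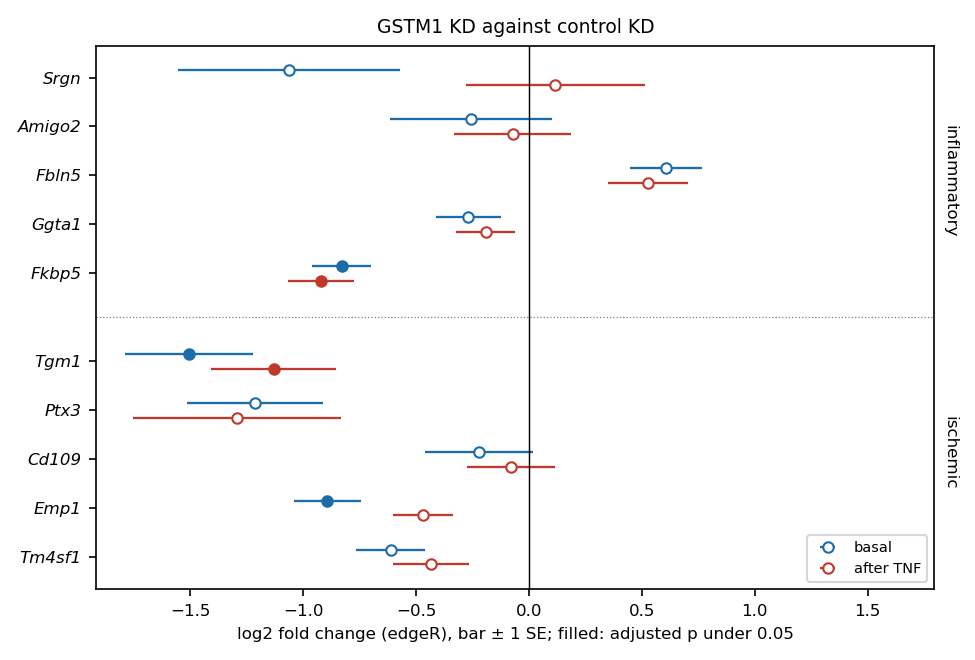
Log2 fold change of GSTM1 KD against control KD for each marker in the basal state (blue) and after TNF-α (red), with bars of 1 SE and filled points for an adjusted p under 0.05. The filled points are Fkbp5 and Tgm1 in both states and Emp1 in the basal state, all to the left of 0, and Fbln5 is to the right in both states.

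Among the inflammatory markers Fkbp5 differed with the knockdown, and it did so in both states. Fkbp5 (ENSMUSG00000024222.16 in the deposited data, ENSMUSG00000024222.17 in GENCODE M21 on GRCm38, chr17:28399094-28517527, minus strand) encodes a co-chaperone of the glucocorticoid receptor and is itself induced by glucocorticoids. In the basal state it stood at 27.3 and 26.2 CPM in control KD and at 15.07 and 15.03 CPM in GSTM1 KD. After TNF-α the levels were 26.2 and 28.9 CPM in control KD and 15.8 and 13.7 CPM in GSTM1 KD. The 4 GSTM1 KD libraries lay below the 4 control KD libraries, with little spread between replicates. Fkbp5 was 1.78-fold lower in GSTM1 KD in the basal state (log2 fold change -0.83 ± 0.132 SE, adjusted p = 0.0263, edgeR) and 1.89-fold lower after TNF-α (-0.92 ± 0.145, adjusted p = 0.0194). Both calls were lost when a GSTM1 KD library was left out (adjusted p = 0.153 without replicate 1 and 0.21 without replicate 2 in the basal state, 0.0874 and 0.148 after TNF-α), fits in which 0 and 3 of all genes passed in the basal state and 0 and 94 after TNF-α. Of the 10 other glucocorticoid-induced genes in the list, 2 were lower and 0 higher in the basal state, Sgk1 (-1.16 ± 0.168, adjusted p = 0.0228), a serum- and glucocorticoid-regulated kinase, and Dusp1 (-0.80 ± 0.131, adjusted p = 0.0269), a phosphatase of MAP kinases. The median of the list was 0.03 in the basal state, with fold changes of both signs (log2 values from -1.16 to 0.57). After TNF-α 3 of 9 tested were lower and 0 higher, among them Dusp1 (-0.68 ± 0.105, adjusted p = 0.0189) and Errfi1 (-0.80 ± 0.185, adjusted p = 0.0433), an inhibitor of the EGF receptor, and the median was -0.20. The list again held both signs after TNF-α, with log2 values from -1.03 to 0.57. The calls of Errfi1 and of Sgk1 after TNF-α were lost with effective lengths as offsets (adjusted p = 0.0548 and 0.0537). Of all genes 5.62% were lower in the basal state and 8.92% after TNF-α.

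Fbln5 was the inflammatory marker with higher levels in GSTM1 KD in both states, short of the threshold. Fbln5 (ENSMUSG00000021186.9; chr12:101746565-101819055, minus strand) encodes fibulin-5, an extracellular matrix protein of elastic fibres. It stood at 9.87 and 10.6 CPM in control KD and 14.98 and 16.2 CPM in GSTM1 KD in the basal state. After TNF-α the levels were 8.83 and 8.003 CPM against 12.8 and 11.9 CPM. Libraries did not overlap in either state, with a log2 fold change of 0.61 ± 0.16 (adjusted p = 0.0678) in the basal state and 0.53 ± 0.176 (adjusted p = 0.0943) after TNF-α. It passed when all 8 libraries were fitted together (adjusted p = 0.0233 and 0.0317) and, in the basal state, without a filter (0.0488). With replicate number as a block in edgeR it passed in the basal state (adjusted p = 0.0185) and not after TNF-α (adjusted p = 0.0712). The labels do not say what a replicate number marks.

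Ggta1 (ENSMUSG00000035778.17; chr2:35400179-35463231, minus strand), an enzyme that adds terminal alpha-galactose to glycans, was the most abundant inflammatory marker. Its levels were 130 and 162 CPM in control KD against 128 and 114 CPM in GSTM1 KD in the basal state, and 103 and 89.0 CPM against 92.1 and 79.0 CPM after TNF-α. The GSTM1 KD libraries lay just below those of control KD in the basal state and overlapped them after TNF-α, and the log2 fold changes were -0.27 ± 0.142 (adjusted p = 0.254) and -0.19 ± 0.13 (adjusted p = 0.335). Amigo2 (ENSMUSG00000048218.6; chr15:97244125-97247287, minus strand), a cell adhesion protein with leucine-rich repeats, stood in the basal state at 2.38 and 1.76 CPM in control KD, with 2.06 and 1.40 CPM in GSTM1 KD. After TNF-α it stood at 3.66 and 3.19 CPM against 3.37 and 3.28 CPM. The groups overlapped in both states, at log2 values of -0.26 ± 0.358 (adjusted p = 0.656) and -0.07 ± 0.26 (adjusted p = 0.867). The gene Pced1b, with at most 113 counts in a library, shares exon sequence with Amigo2 on the opposite strand, so the Amigo2 counts of 28 to 85 are uncertain. Srgn (ENSMUSG00000020077.14; chr10:62493833-62527451, minus strand), the core protein of a proteoglycan of secretory granules, was near the limit of detection with 5 to 17 counts per library. The counts in the basal state were 15 and 17 in control KD but 6 and 5 in GSTM1 KD. After TNF-α they were 13 and 10 in control KD, with 14 and 11 in GSTM1 KD. In the basal state the GSTM1 KD libraries (0.258 and 0.25 CPM) lay below the control KD libraries (0.424 and 0.665 CPM), and the difference did not pass (-1.06 ± 0.492, adjusted p = 0.203). After TNF-α the levels were 0.56 and 0.602 CPM in control KD and 0.647 and 0.632 CPM in GSTM1 KD (0.12 ± 0.396, adjusted p = 0.857).

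Among the ischemic markers Tgm1 had the largest knockdown difference in the basal state, although without control KD replicate 1 Ptx3 (-1.61) was ahead of it (-1.42). Tgm1 (ENSMUSG00000022218.16; chr14:55700009-55713926, minus strand) encodes a transglutaminase, an enzyme that cross-links proteins, and its first promoter window is the one with 2 STAT matches above. It stood at 16.9 and 15.02 CPM in control KD and at 7.08 and 4.11 CPM in GSTM1 KD in the basal state. After TNF-α it stood at 22.5 and 24.6 CPM in control KD and 13.9 and 7.87 CPM in GSTM1 KD. The groups were apart in both states, and the replicates of GSTM1 KD differed 1.72-fold and 1.76-fold from each other. Tgm1 was 2.84-fold lower in GSTM1 KD in the basal state (-1.50 ± 0.284, adjusted p = 0.0349) and 2.19-fold lower after TNF-α (-1.13 ± 0.276, adjusted p = 0.0475). The adjusted p after TNF-α was 0.0503 with effective transcript lengths as offsets. Without GSTM1 KD replicate 1 or 2 the log2 fold change was -1.955 and -1.18 in the basal state and -1.60 and -0.79 after TNF-α. Both calls were lost in these fits, like nearly all calls of other genes.

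Emp1 (ENSMUSG00000030208.15; chr6:135362545-135383173, plus strand), a tetraspan membrane protein, was lower in GSTM1 KD in the basal state. Its levels were 539 and 611 CPM in control KD and 280 and 339 CPM in GSTM1 KD, with the groups far apart, a 1.86-fold difference (-0.89 ± 0.148, adjusted p = 0.0279). The log2 fold change was -0.76 and -1.05 without GSTM1 KD replicate 1 and 2. The call was lost in both fits, like nearly all calls of other genes. After TNF-α Emp1 stood at 362 and 304 CPM in control KD and 233 and 257 CPM in GSTM1 KD. The groups were again apart, by less (-0.47 ± 0.132, adjusted p = 0.0653). This difference passed with DESeq2 (adjusted p = 0.0256) and with replicate number as a block in edgeR (adjusted p = 0.0296). Tm4sf1 (ENSMUSG00000027800.14; chr3:57285611-57301988, minus strand), also a tetraspan membrane protein, stood at 277 and 213 CPM in control KD and 160 CPM in both GSTM1 KD libraries in the basal state. After TNF-α it stood at 288 and 224 CPM against 210 and 176 CPM. Each GSTM1 KD library was below each control KD library of its state. The differences of -0.61 ± 0.154 (adjusted p = 0.0624) and -0.43 ± 0.167 (adjusted p = 0.126) did not pass, while that in the basal state passed with DESeq2 (adjusted p = 0.00693). With replicate number as a block in edgeR, both passed (adjusted p = 0.00152 and 0.0181).

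Ptx3 (ENSMUSG00000027832.5; chr3:66219910-66225805, plus strand), a secreted pentraxin of innate immunity, varied most between control KD replicates in CPM, whereas in TPM Srgn differed more in the basal state (2.16-fold against 1.95-fold). In the basal state it stood at 90.5 and 175 CPM in control KD and 59.4 and 54.9 CPM in GSTM1 KD. After TNF-α the control KD libraries stood at 327 and 939 CPM, a 2.87-fold difference between replicates, and the GSTM1 KD libraries at 269 and 255 CPM. GSTM1 KD was below control KD in both states without overlap, at -1.21 ± 0.302 on the log2 scale in the basal state (adjusted p = 0.0615) and -1.29 ± 0.46 after TNF-α (adjusted p = 0.108). The size of the difference after TNF-α rested on the control KD replicate used: -0.34 without replicate 2 and -1.86 without replicate 1. That in the basal state was -0.67 and -1.61 with the same replicates left out, and it passed with DESeq2 (adjusted p = 0.000401). With replicate number as a block in edgeR, the Ptx3 difference passed in both states (adjusted p = 0.00023 and 0.0374). Cd109 (ENSMUSG00000046186.8; chr9:78615546-78716253, plus strand), a membrane-anchored protein that binds TGF-β, stood at 231 and 375 CPM in control KD and 240 and 279 CPM in GSTM1 KD in the basal state, and at 232 and 338 CPM against 251 and 297 CPM after TNF-α. The groups overlapped in both states (-0.22 ± 0.24, adjusted p = 0.562; -0.08 ± 0.196, adjusted p = 0.797). The direction turned to 0.16 and 0.21 when control KD replicate 2 was left out of the fit of that state, and to 0.04 without GSTM1 KD replicate 1 after TNF-α, while without control KD replicate 1 in the basal state it was -0.53 (adjusted p = 0.0336, with 1 control KD library and the spread of GSTM1 KD alone). For Ptx3 and Cd109 the control KD library with the higher level was replicate 2 in both states, which also had the higher summed astrocyte markers, and the part of that difference in these results was not tested.

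**Figure D3:**
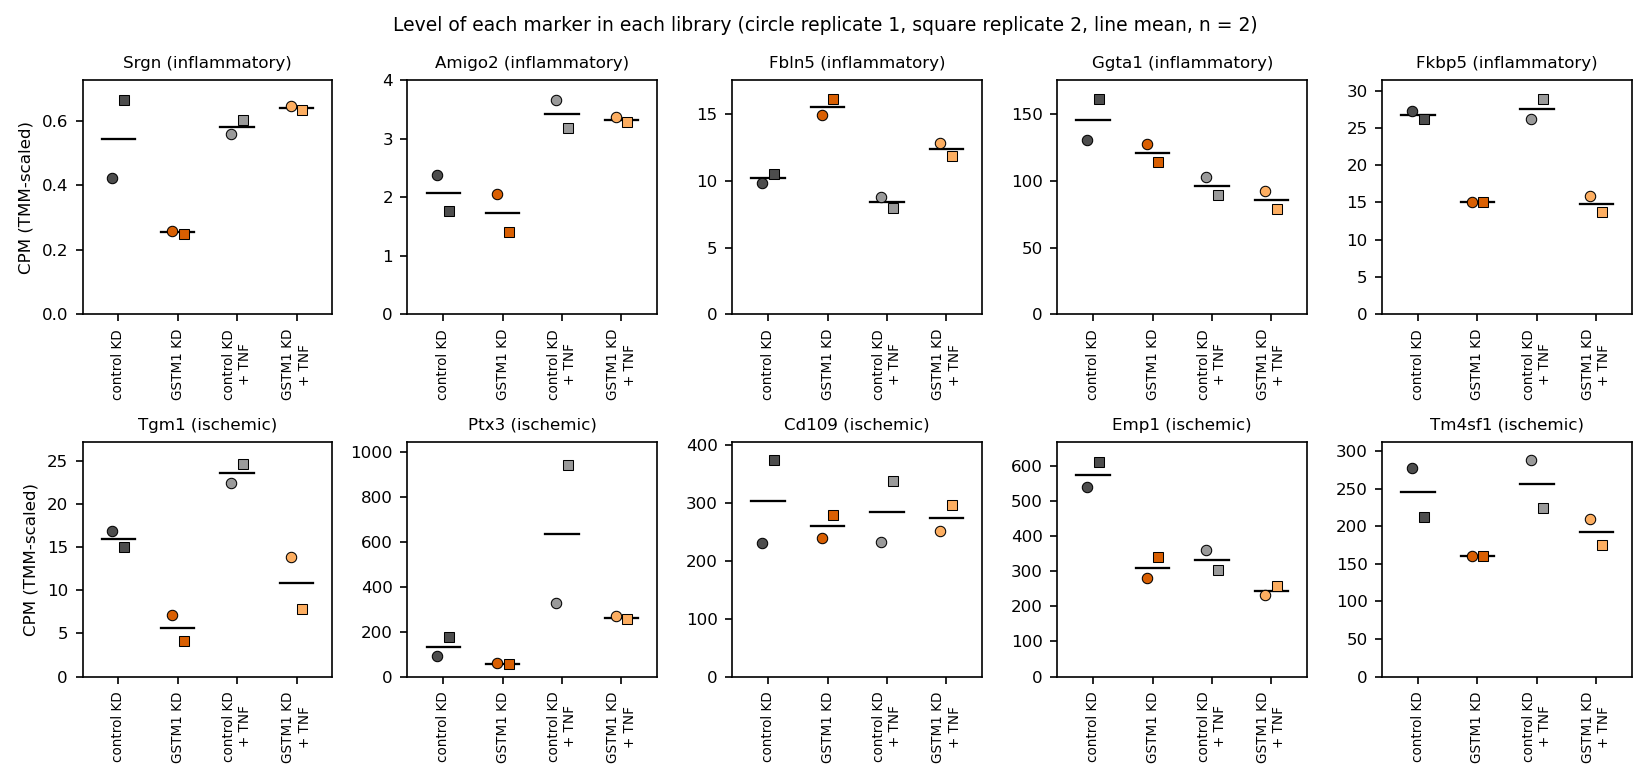
CPM of each marker in each library, with circles for replicate 1, squares for replicate 2 and lines for the mean of n = 2, inflammatory markers above and ischemic markers below. The 4 GSTM1 KD points of Fkbp5 (13.7 to 15.8 CPM) lie below the 4 control KD points (26.2 to 28.9 CPM), and the control KD points of Ptx3 after TNF-α are far from each other (327 and 939 CPM).

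The response to TNF-α was fitted on all 8 libraries. In control KD astrocytes 1 of the 10 markers passed, Emp1, which was lower after TNF-α. Of all 15332 genes tested 2.63% passed and 0.528% were lower. With DESeq2 3 markers passed in control KD (Ptx3, Emp1 and Ggta1), beside 739 of all 16782 genes. With edgeR 4 of the 10 markers had an unadjusted p under 0.05 in control KD, beside 1920 of all 15332 genes. The libraries before and after TNF-α did not overlap for 6 of 10 markers, 3 higher and 3 lower, against 34.5% of genes tested. In GSTM1 KD astrocytes 0 of the 10 markers passed with edgeR, beside 2.65% of the genes tested. With DESeq2 1 passed (Ptx3), beside 629 of all 16782 genes. With edgeR 7 of the 10 markers had an unadjusted p under 0.05, beside 1670 of all 15332 genes tested. Libraries did not overlap for 8 of 10 markers, 5 higher and 3 lower, against 44.5% of genes tested. The medians of the inflammatory markers were 0.04 for control KD and -0.03 for GSTM1 KD, and those of the ischemic markers 0.06 and 0.27, beside -0.02 and -0.01 over all genes. Each set held fold changes of both signs in both knockdowns.

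**Figure D4:**
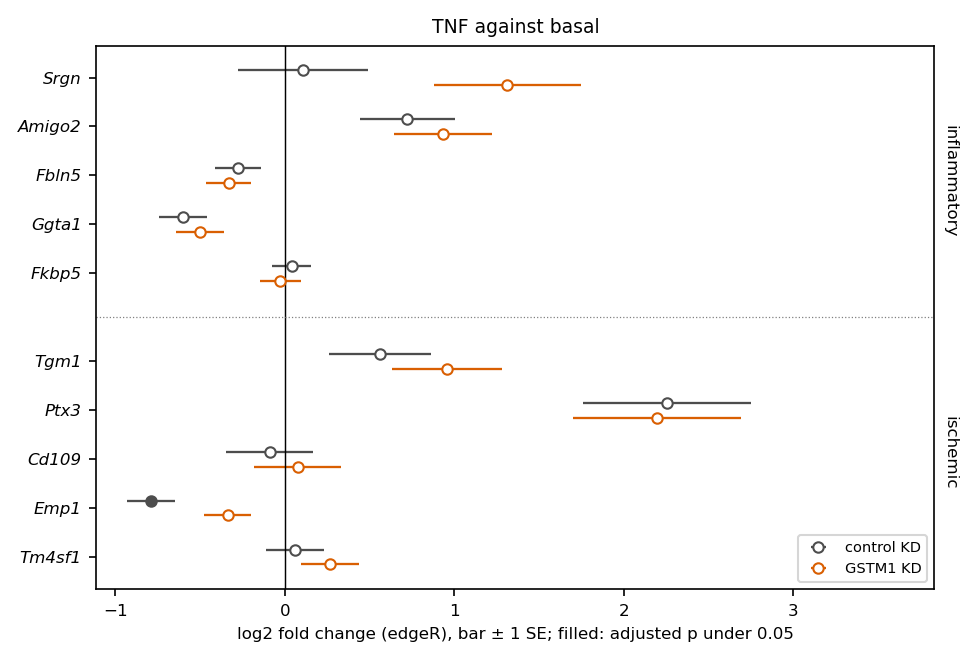
Log2 fold change after TNF-α against the basal state for each marker in control KD (grey) and GSTM1 KD (orange), with bars of 1 SE and a filled point for an adjusted p under 0.05. Ptx3 lies farthest to the right in both (2.26 and 2.20), and the filled point is Emp1 in control KD (-0.79).

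Ptx3 had the largest fold changes under TNF-α in both knockdowns, from 90.5 and 175 CPM to 327 and 939 CPM in control KD and from 59.4 and 54.9 CPM to 269 and 255 CPM in GSTM1 KD. All libraries after TNF-α exceeded all basal libraries, and the log2 fold changes were 2.26 ± 0.494 (adjusted p = 0.0688) and 2.20 ± 0.496 (adjusted p = 0.0813). With DESeq2 both passed (adjusted p = 0.00468 and 0.00825), as they did with replicate number as a block in edgeR (adjusted p = 0.0194 and 0.023). With edgeR on 1 knockdown alone, Ptx3 passed in the 4 GSTM1 KD libraries (adjusted p = 0.000356) and not in the 4 control KD libraries (adjusted p = 0.327). In control KD the change was 1.32 (adjusted p = 0.172) when replicate 2 after TNF-α was left out and 2.82 (adjusted p = 0.0107) when replicate 1 was, and leaving out either of these brought the response in GSTM1 KD past the threshold (adjusted p = 0.0131 and 0.0129). In these fits the single control KD library after TNF-α gave no spread and was taken to vary like the other groups. Emp1 moved the other way, from 539 and 611 CPM to 362 and 304 CPM in control KD, a 1.73-fold lower level (-0.79 ± 0.14, adjusted p = 0.034). In GSTM1 KD it went from 280 and 339 CPM to 233 and 257 CPM (-0.34 ± 0.14, adjusted p = 0.438). The call in control KD was lost in each of the 8 fits with a library left out, with adjusted p from 0.0504 to 0.184, and in the 4 control KD libraries alone (adjusted p = 0.179). The comparison of Emp1 between GSTM1 KD and control KD in the basal state used the same 2 control KD libraries.

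Of the other ischemic markers, Tgm1 had higher levels after TNF-α in both knockdowns without overlap, 22.5 and 24.6 CPM against 16.9 and 15.02 CPM in control KD (0.56 ± 0.302, adjusted p = 0.567) and 13.9 and 7.87 CPM against 7.08 and 4.11 CPM in GSTM1 KD (0.96 ± 0.324, adjusted p = 0.282). Cd109 (-0.09 ± 0.258 and 0.08 ± 0.259) and Tm4sf1 (0.06 ± 0.171 and 0.27 ± 0.172) differed from the basal state by less than 2 SE in both. Among the inflammatory markers Amigo2 was the gene whose levels after TNF-α were higher without overlap in both, 3.66 and 3.19 CPM against 2.38 and 1.76 CPM in control KD (0.72 ± 0.28, adjusted p = 0.338) and 3.37 and 3.28 CPM against 2.06 and 1.40 CPM in GSTM1 KD (0.93 ± 0.289, adjusted p = 0.226). Ggta1 had lower levels after TNF-α in both, 103 and 89.0 CPM against 130 and 162 CPM in control KD (-0.60 ± 0.142, adjusted p = 0.086) and 92.1 and 79.0 CPM against 128 and 114 CPM in GSTM1 KD (-0.50 ± 0.142, adjusted p = 0.174). Neither the Amigo2 nor the Ggta1 groups overlapped. The Ggta1 difference in control KD passed with DESeq2 (adjusted p = 0.0139) and with replicate number as a block in edgeR (adjusted p = 0.0434). Fbln5 stood at -0.28 ± 0.136 and -0.33 ± 0.134, Fkbp5 at 0.04 ± 0.116 and -0.03 ± 0.12, and Srgn at 0.11 ± 0.384 in control KD and 1.31 ± 0.434 in GSTM1 KD (adjusted p = 0.984 and 0.266).

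The difference between the responses of GSTM1 KD and control KD passed for 0 of the 10 markers and for 0% of all 15332 genes with edgeR. No marker (0 of 10) had an unadjusted p under 0.05, beside 296 of all genes, and DESeq2 called 27 genes, 0 of them markers. The values farthest from 0 were 1.20 ± 0.579 for Srgn, 0.45 ± 0.198 for Emp1 and 0.39 ± 0.441 for Tgm1 on the log2 scale. Ptx3 was at -0.06 ± 0.671, an SE that spans large differences of either sign.

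The other genes usually listed with the 2 types were read beside the 10 markers. Of 7 other inflammatory genes 6 were tested, and 4 of the 6 rose with TNF-α in control KD and 4 in GSTM1 KD, with list medians of 1.25 and 1.62, beside 2.63% and 2.65% of all genes past the threshold. Iigp1, an interferon-inducible GTPase, rose from 4.18 ± 0.49 to 32.7 ± 1.13 CPM in control KD (2.96 ± 0.386 SE, adjusted p = 0.0108) and from 5.37 ± 1.51 to 191 ± 99.8 CPM in GSTM1 KD (5.14 ± 0.409, adjusted p = 0.00156; 4.47 without GSTM1 KD replicate 1 after TNF-α). The difference between the 2 Iigp1 responses, 2.18 ± 0.532, did not pass with edgeR (adjusted p = 0.9999). DESeq2 called that difference for 1 of the 6 genes. Gbp2, a guanylate-binding protein, rose in control KD from 31.0 ± 15.4 to 420 ± 262 CPM (3.76 ± 0.517, adjusted p = 0.0127; 2.94 to 4.39 with a library left out), and H2-D1, a class I MHC heavy chain, rose in GSTM1 KD (0.99 ± 0.117, adjusted p = 0.00604). When the 4 control KD libraries were fitted alone, 3 of the 4 calls in control KD were lost (Gbp2, H2-D1 and Psmb8) and that of Iigp1 held. None of the 5 inflammatory markers passed the threshold for TNF-α with edgeR (0 of 5 in either knockdown, 1 in control KD and 0 in GSTM1 KD with DESeq2). With edgeR 2 of the 5 in control KD and 4 in GSTM1 KD had an unadjusted p under 0.05, beside 1920 and 1670 of all 15332 genes. The 5 markers and the other inflammatory genes were not compared by a test. Between GSTM1 KD and control KD, 0 of these 6 passed in the basal state with edgeR, 0 at an unadjusted p under 0.05 and 0 with DESeq2, and after TNF-α 1 of 6 was higher, Iigp1 (2.52 ± 0.369, adjusted p = 0.0176; 1.86 with an adjusted p of 0.062 without GSTM1 KD replicate 1 after TNF-α). Without control KD replicate 2 in the basal state the adjusted p of the Iigp1 response in control KD was 0.0681, and the H2-D1 response in GSTM1 KD was lost without GSTM1 KD replicate 1 or 2 in the basal state (0.0687 and 0.092) or GSTM1 KD replicate 1 after TNF-α (0.0537).

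Of 8 other ischemic genes 7 were tested, and between GSTM1 KD and control KD 3 of 7 were lower in the basal state and 2 of 7 after TNF-α, with 0 higher in either state and list medians of -0.63 and -0.59. Clcf1, a cytokine of the interleukin-6 family, stood at 181 ± 3.3 CPM in control KD but at 80.1 ± 3.46 CPM (SD, n = 2) in GSTM1 KD in the basal state (-1.18 ± 0.104 SE, adjusted p = 0.0132) and at 159 ± 7.87 and 75.4 ± 7.34 CPM after TNF-α (-1.10 ± 0.115, adjusted p = 0.0111). B3gnt5, a glycosyltransferase of glycolipid synthesis, was lower in the basal state (-0.63 ± 0.131, adjusted p = 0.0418). Ptgs2, the inducible cyclooxygenase, was lower in GSTM1 KD after TNF-α, at 130 ± 0.314 against 334 ± 5.54 CPM (-1.38 ± 0.0969, adjusted p = 0.00971). Under TNF-α 1 of 7 rose in control KD, Ptgs2 (1.26 ± 0.196, adjusted p = 0.021), a call lost in the 4 control KD libraries alone and without any of the 4 libraries after TNF-α (adjusted p from 0.053 to 0.0827). In GSTM1 KD 0 of 7 passed with edgeR, with 2 at an unadjusted p under 0.05 (beside 1670 of all 15332 genes) and 1 with DESeq2.

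The pan-reactive list of 13 genes was tested in full, and 5 were lower in GSTM1 KD in the basal state and 4 after TNF-α, with 0 higher and medians of -0.78 and -0.56. Cd44, a hyaluronan receptor, stood at 1194 ± 7.59 CPM in control KD but at 665 ± 19.6 CPM in GSTM1 KD in the basal state (-0.85 ± 0.12 SE, adjusted p = 0.0227). Timp1, an inhibitor of metalloproteinases, was lower in both states (-1.57 ± 0.258, adjusted p = 0.0277; -1.57 ± 0.183, adjusted p = 0.0121), and Hspb1, a small heat shock protein, after TNF-α (-1.76 ± 0.278, adjusted p = 0.0196). TNF-α raised 2 of 13 in each knockdown, the chemokine Cxcl10 (6.41 ± 0.361, adjusted p = 0.000451 in control KD; 8.35 ± 0.398, adjusted p = 0.000255 in GSTM1 KD) and Cd44 (0.60 ± 0.105, adjusted p = 0.0326; 0.79 ± 0.106, adjusted p = 0.0103). The difference between the 2 Cxcl10 responses, 1.94 ± 0.426, did not pass with edgeR (adjusted p = 0.9999). DESeq2 called that difference for 1 of the 13 genes. The Cd44 call in control KD was lost in the 4 control KD libraries alone and in 7 of 8 fits with a library left out, all but that without control KD replicate 1 after TNF-α. The Cd44 call in GSTM1 KD was lost without any 1 of the GSTM1 KD libraries. The Cxcl10 calls held in all 8 such fits. The calls of Fkbp5, Tgm1 and Emp1 in the knockdown comparisons thus stood beside lower pan-reactive and other ischemic genes, and in the knockdown fits without GSTM1 KD replicate 1 no call of these lists remained, since 0 of all genes passed in either state. The shares of these lists are to be read against the 10.2% and 16.2% of all genes that passed for the knockdown, and 2.63% and 2.65% for TNF-α.

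**Figure D5:**
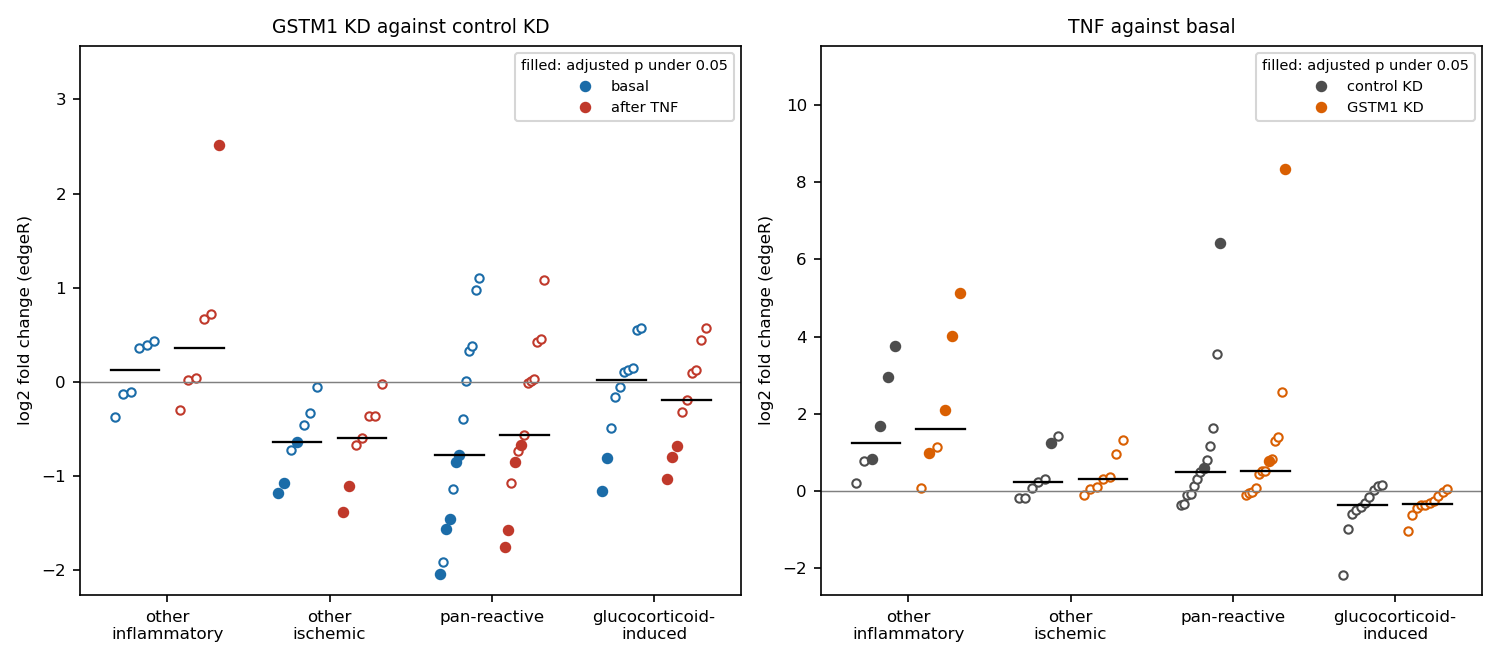
Log2 fold change of each tested gene of the wider lists, for GSTM1 KD against control KD (left) and TNF-α against the basal state (right), with filled points for an adjusted p under 0.05 and black lines at the list medians. The other ischemic and pan-reactive medians lie below 0 for the knockdown (-0.63 and -0.78 in the basal state), and the other inflammatory medians above 0 for TNF-α (1.25 and 1.62).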

How the data were processed

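RNA-seq of 8 libraries (4 groups of 2 biological replicates) was used. According to the study's methods, directional libraries were read on an Illumina HiSeq, mapped to GRCm38 with STAR (2.5.4b) and quantified with RSEM (1.3.0). The annotation release, and whether counting used the strand, are not given in the sources used here. The authors deposited, per gene, an expected count (an estimate that need not be whole), a TPM value (per length, scaled to a common total) and an effective length, which here is another deposited value used as an offset. Expected counts were rounded first to whole numbers, a step all tests share.

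edgeR (4.0.16, R 4.3.3) gave TMM factors (0.958 to 1.03), the filterByExpr filter, and quasi-likelihood F-tests with Benjamini-Hochberg adjustment over all genes tested at 0.05. The standard error is the log2 fold change divided by the square root of F. The knockdown was tested separately for each state, on its 4 libraries. TNF-α responses and their difference used all 8, with 1 coefficient per group. CPM used library sizes times TMM factors. Alternatives were DESeq2 (1.42.0), edgeR with DESeq2's size factors, edgeR with no normalization factors, an unfiltered table, a minimum of 10 counts per library, effective length offsets, edgeR's newer quasi-likelihood method, a replicate block, other libraries in the fit, and leaving out each library. The fits were also run on simulated data, and the outcome is not given here. The exact permutation test cannot pass 0.05 with 2 libraries per group, so p-values come only from models across all genes.

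The markers and lists were chosen with earlier results of these data known. All 10 markers are named in every comparison. From each wider list, at most the 2 genes past the threshold with the smallest p in each direction are named, and from the cell type lists the marker with the highest mean level and any other a sentence turns on. Gene positions are from GENCODE M21 and promoters from RefSeq (GRCm38.p6). Figures were drawn with matplotlib (3.10.9).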

Additional observations from a re-analysis of the deposited data

Results flagged for a closer look

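Srgn stood out because its libraries separated in opposite directions in the 2 states. In the basal state each GSTM1 KD library was below each control KD library (log2 fold change -1.06), and after TNF-α each GSTM1 KD library was above each control KD library (0.12). The separation after TNF-α was seen in CPM and not in TPM, where the levels were 1.73 and 1.44 in control KD against 1.36 and 1.56 in GSTM1 KD, and with effective length offsets the log2 fold change was -0.19. The difference between the basal and TNF-α values was tested as the difference in TNF-α response, which was 1.20 ± 0.579 SE with an adjusted p of 0.9999 (edgeR, 4 groups of 2 libraries), on 5 to 17 counts per library. Dixon's test for a library far from the others needs 4 or more samples in a group and was not applied.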

How the results depend on the processing

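With 2 libraries per group, counts past the threshold moved with the test. For the knockdown in the basal state, 3 of the 10 markers passed, against 5 with DESeq2, 6 without a filter, 5 with all 8 libraries, and 0 to 7 when a library was left out. After TNF-α, 2 passed, against 5 without a filter, 1 with effective length offsets, and 0 to 5 with a library left out. For TNF-α in control KD, 1 passed, against 3 with DESeq2, 3 without a filter, 0 in the 4 control KD libraries, and 0 to 1 with a library left out. For TNF-α in GSTM1 KD, 0 passed, against 1 with DESeq2, 3 without a filter, 1 in the 4 GSTM1 KD libraries and 0 to 1 with a library left out. The difference in response was 0 markers in every fit. All genes past the threshold without a filter numbered 3957 and 4539 for the knockdown in the basal state and after TNF-α (1524 and 2360 with it), and 2494 and 2843 with DESeq2. For TNF-α in control KD and GSTM1 KD, 403 and 406 of 15332 genes passed, against 739 and 629 of 16782 with DESeq2, 1236 and 1039 of 26489 without a filter, and 72 of 14804 and 691 of 14753 in 4 libraries. The cause was not tested.

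A replicate block gave 6, 5, 3 and 1 markers in the same order of comparisons, and 4722, 4310, 988 and 808 genes. The markers it added were Fbln5 (adjusted p = 0.0185), Tm4sf1 (0.00152) and Ptx3 (0.00023) in the basal state, Tm4sf1 (0.0181), Ptx3 (0.0374) and Emp1 (0.0296) after TNF-α, Ptx3 (0.0194) and Ggta1 (0.0434) for TNF-α in control KD, and Ptx3 (0.023) for TNF-α in GSTM1 KD. The labels do not say what a replicate number marks, so the samples were not treated as paired. Deviations from group means correlated at 0.292 to 0.786 between groups by number over 13313 genes.

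Fkbp5, Tgm1 and Emp1 kept their direction in every fit of both knockdown comparisons, and so did Ptx3, Tm4sf1, Fbln5 and Ggta1, which had not passed. In the TNF-α response of control KD, Emp1 kept its direction in every fit, and so did Amigo2, Fbln5, Ggta1, Tgm1 and Ptx3. With effective length offsets the sign turned for Srgn in the knockdown after TNF-α (-0.19) and Fkbp5 in the TNF-α response of GSTM1 KD (0.15). With a library left out, the knockdown after TNF-α ranged from -0.16 to 0.0397 for Amigo2 and from -0.32 to 0.21 for Cd109, and in the basal state from -0.53 to 0.16 for Cd109. The TNF-α response in control KD ranged from -0.20 to 0.45 for Srgn, -0.0149 to 0.11 for Fkbp5, -0.40 to 0.31 for Cd109 and -0.13 to 0.27 for Tm4sf1. That in GSTM1 KD ranged from -0.14 to 0.0778 for Fkbp5 and -0.0467 to 0.19 for Cd109. The difference in response ranged from -0.0806 to 0.85 for Tgm1 and -0.62 to 0.88 for Ptx3, and its sign also turned for Cd109 (-0.24 to 0.47), Amigo2 (-0.0418 to 0.52), Ggta1 (-0.0728 to 0.25), Fbln5 (-0.14 to 0.0253), Fkbp5 (-0.18 to 0.0279; 0.11 with effective length offsets) and Tm4sf1 (-0.0014 to 0.40). The cause was not tested. Depth limits Srgn (5 to 17 counts) and Amigo2 (28 to 85 counts).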
